A study of Mus musculus with 4 samples.

Results

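DNA replication in a dividing cell is carried out by a fixed set of proteins, and 48 genes that encode them were measured in mouse regulatory T cells, CD4+ T lymphocytes that hold immune responses in check. The 48 genes were chosen by symbol and not by a rule on their values, although earlier results of these data were known. They were looked up by Ensembl identifier among the 50600 genes listed for each library. All 48 were found. They were placed in 11 role groups, from recognition of the origin to assembly of the new chromatin. The data are 4 RNA sequencing libraries, replicates 1 to 4, each with a table of fragment counts per gene, and all 4 belong to 1 group. The cells are primary regulatory T cells of the C57BL/6NJ strain, with sex not collected and age unknown, and each library has its own biosample while the donor record is shared. No mutation, treatment or second cell type is labelled, so no conditions are compared. The file headers carry the words activated and 48h in the names of the alignment files, which is given here as a header note and not as a group. The labels do not name separate cultures or animals behind the libraries, which can differ for technical reasons too. All p-values therefore measure the spread among 4 biosamples and nothing wider.

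Replication starts when the origin recognition complex (ORC) binds DNA and, with Cdc6 and Cdt1, loads the ring-shaped MCM helicase. Loading takes place before S phase and is limited by geminin, the product of Gmnn, while activation of the loaded helicase by Cdc45 and the GINS complex begins S phase. Polymerase alpha with its primase then makes primers, polymerase epsilon and polymerase delta extend the leading and the lagging strand, and the sliding clamp Pcna keeps them on the template. Resting T cells transcribe many of these genes at a low level, and entry into the cell cycle raises them, largely through the E2F transcription factors.

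The libraries held 43821767, 58696937, 73819468 and 52005209 counts in replicates 1 to 4. All 5 regulatory T markers and all 4 general T cell markers were expressed, meaning a TPM of at least 1 in every library. TPM is the count divided by the summed exon length of the gene and scaled to the same sum, 1000000, in each library. The markers of B cells, myeloid cells, natural killer cells, erythroid cells and stromal or epithelial cells were expressed at 0 of 14 genes, with Lyz2 and S100a8 at 0 counts, and of the CD8 T markers Cd8b1 stood at 11.7 TPM while Cd8a did not pass. The libraries stood apart in sex-linked genes although they share a donor record. Xist, transcribed from the inactive X chromosome, read 172, 145, 0.255 and 0.367 TPM in replicates 1 to 4, and the Y-linked Ddx3y read 0.152, 0.0781, 45.1 and 45.0. High Xist with almost no Ddx3y is the pattern of female cells, and the reverse is that of male cells. The libraries therefore do not all come from 1 animal, although the donor record is shared. No groups were formed from the Xist and Ddx3y values. The comparisons between libraries held no term for sex and cannot tell it from other differences. The members' count expressed, their median, the 10 partner ratios and the comparisons between libraries were also computed without each library in turn.

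All 48 replication genes were expressed, and nearly all stood in the upper range of the transcriptome. Their median was 93.4 ± 2.46 TPM (mean ± SD of 4 libraries, as for all values below), against 28.6 ± 0.135 for the 11593 expressed genes and 33.7 ± 0.120 for the 10274 of these that are protein coding. In every library 37 of the 48 exceeded 50 TPM, 22 exceeded 100 and 10 exceeded 200, where the shares of all expressed genes were 32.8%, 17.4% and 7.50%. By mean TPM, members stood at a median percentile of 80.0 among expressed genes, from 43.9 for Orc4 to 97.7 for Mcm3, and 44 lay above the median gene. Together they made up 0.700 ± 0.0135% of TPM. Counting error was small, since the lowest count of any member in any library was 793 and the highest 45984.

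**Figure D1:**
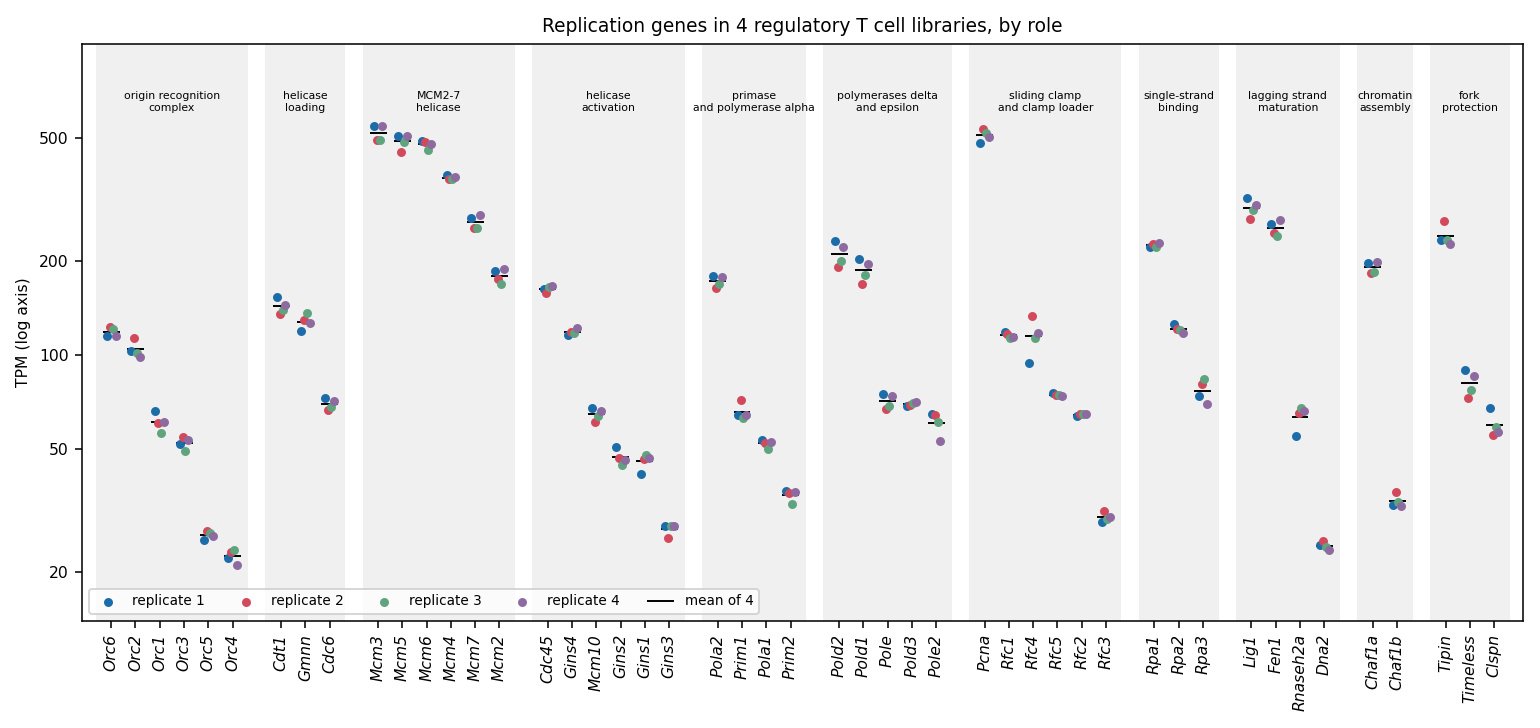
TPM (log axis) of the 48 replication genes in each of the 4 libraries, grouped by role and ordered by mean within a group; points are libraries and bars are means. Mcm3, Pcna, Mcm5 and Mcm6 are highest, Orc4 is lowest at 22.5 TPM on the deposited length, and the points of a gene lie close together compared with the distance between genes.

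A level per length depends on the length used. The deposited length counts every exon base of the gene, including those of rare transcripts, and a shorter or longer transcript moves the level. With the longest protein-coding transcript of GENCODE M21 as the length, 7 of 48 members moved by more than 1.5-fold. The level was higher Prim2 by 2.18-fold, Orc5 by 2.13-fold, Rfc3 by 1.99-fold, Orc3 by 1.92-fold, Chaf1b by 1.89-fold and Prim1 by 1.77-fold. Chaf1a changed to 0.434 of its level, but its counts cover fewer bases than that transcript. The ratio over all members had a median of 0.985. TPM was scaled anew on the coding length. That alone lowered Mcm4 and Gins4, whose lengths did not change, to 0.725 of their levels. Fold moves here therefore understate the effect of a shorter length. Mcm2, with 6956 deposited and 3371 coding bases, rose by 1.497-fold. Orders between genes are therefore given on the deposited length. Where the coding length turned an order within a role group, the values on that length follow. Their fragments were still counted over all deposited exon bases. A level on a shorter coding length can therefore be too high, and a turned order carries this limit. Differences of 1 gene between libraries hardly depend on the length used.

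The 6 subunits of ORC, which marks the origins, ranged over 5.26 ± 0.134-fold. Orc6, the small subunit that lacks the ATPase fold of the others, was highest with 115, 123, 121 and 115 TPM in replicates 1 to 4 (118.5 ± 4.00). Orc4, a subunit of the AAA+ ATPase family, was the lowest of all 48 members on the deposited length with 22.2, 23.2, 23.6 and 21.2 TPM (22.5 ± 1.09, ENSMUSG00000026761.12 on mm10 chromosome 2, 48902824 to 48950277, minus strand). The 4 libraries of each gene lay within a narrow range, and the ranges of Orc6 and Orc4 were far apart. Orc1, the subunit whose ATPase activity drives loading and whose protein is known to vary through the cell cycle, read 66.0, 60.2, 56.0 and 61.0 TPM (60.8 ± 4.08). Orc2 stood at 104 ± 6.60, Orc3 at 52.2 ± 2.21 and Orc5 at 26.4 ± 0.774, and another gene covers 1.46% of the exon bases of Orc5. From Orc6 down through Orc2, Orc1, Orc3 and Orc5 to Orc4, no 2 neighbours had overlapping ranges, and Orc6 exceeded Orc1 by a ratio of 1.96 ± 0.181. With the coding length Orc3 rose to 100.2 ± 4.22 TPM, above Orc2 at 81.9 ± 5.17, and Orc5 rose to 56.2 ± 1.56, above Orc1 at 50.9 ± 3.51. Orc4 stood at 30.0 ± 1.44 on that length, above Dna2 at 25.2 ± 0.674 and Gins3, then the lowest member, at 21.5 ± 0.941.

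Helicase loading was represented by the loaders Cdc6 and Cdt1 and by geminin, which binds Cdt1 and blocks it. Cdt1 was highest with 153, 136, 140 and 145 TPM (143 ± 7.65), and Gmnn followed with 119, 129, 137 and 127 TPM (128 ± 7.09). Gmnn was lowest in replicate 1, where Cdt1 was highest, and the ranges of these genes overlapped over the libraries. Cdc6 was lower with 72.8, 66.5, 68.3 and 71.1 TPM (69.7 ± 2.82). Within each library the ratio of Gmnn to Cdt1 was below 1, at 0.897 ± 0.0893, and the mean ratio was 0.813 ± 0.0810 on the coding length. With the longest transcript of any type it was 1.00 ± 0.0997.

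The MCM2-7 subunits form the ring that unwinds DNA and were the most abundant group, with a median of 419 ± 11.5 TPM. Mcm3 was the highest member on the deposited length with 546, 490.1, 492 and 546 TPM (519 ± 32.0, ENSMUSG00000041859.10 on mm10 chromosome 1, 20802968 to 20820312, minus strand). Replicates 1 and 4 were higher than replicates 2 and 3. Mcm5 stood at 486 ± 26.2 and Mcm6 at 486, 482, 455 and 477 TPM (475 ± 13.8). The ranges of Mcm3 and Mcm5 overlapped, as did those of Mcm5 and Mcm6. Below them, Mcm4 at 371 ± 6.09, Mcm7 at 267 ± 13.2 and Mcm2 at 187, 175, 169 and 189 TPM (179.9 ± 9.67) were each separated from their neighbours. Mcm3 exceeded Mcm6 in 4 of 4 libraries by a ratio of only 1.09 ± 0.0567. The ring holds 1 copy of each subunit, yet Mcm3 and Mcm2 transcripts differed by 2.88 ± 0.0585-fold on the deposited length. Mcm2 has 6956 deposited exon bases and a longest coding transcript of 3371. On the coding length Mcm2 stood at 269 ± 14.7 TPM, Mcm4 at 269 ± 4.94 and Mcm7 at 289.6 ± 14.6. Mcm7 then stood above Mcm4, and Mcm2 and Mcm4 were nearly equal. Mcm4 has 3589 bases on both lengths, so its lower value there reflects the new scaling of TPM. For Mcm7, 3.89% of exon bases are shared with the microRNA genes Mir25 and Mir93, which lie inside it.

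Activation of the loaded ring needs Mcm10, Cdc45 and the 4 subunits of GINS. Cdc45, which joins the ring to form the active helicase, was highest with 162, 159, 166 and 167 TPM (163 ± 3.86). Gins3 was lowest with 28.1, 25.8, 28.3 and 28.1 TPM (27.6 ± 1.19), and replicate 2 lay below the other 3, which were close together. The GINS subunits assemble in equal copies, and their transcripts differed in level. Gins4 stood at 119 ± 2.51 TPM, Gins2 at 50.6, 46.5, 44.4 and 46.1 (46.9 ± 2.61) and Gins1 at 45.6 ± 2.86. Of neighbours in the activation group, only Gins2 and Gins1 overlapped in range on the deposited length. On the coding length their order turned, with Gins1 at 46.1 ± 2.81 and Gins2 at 35.8 ± 2.06. Gins2 exceeded Gins3 in each library, by a ratio of 1.70 ± 0.116. Mcm10, a factor that stimulates activation and strand separation, stood at 64.4 ± 2.91 TPM.

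Primer synthesis falls to polymerase alpha, with the catalytic subunit Pola1, the accessory subunit Pola2 and the primase subunits Prim1 and Prim2. Pola2 was highest with 179, 164, 168 and 178 TPM (172 ± 7.67). Pola1, which lies on chromosome X, read 53.2, 52.0, 49.8 and 52.7 TPM (51.9 ± 1.50). Its 4 values lay within 1 narrow range although Xist separated replicates 1 and 2 from replicates 3 and 4. Prim1 had 64.0, 71.6, 62.7 and 64.3 TPM (65.7 ± 4.04), with replicate 2 highest. Prim2 had 36.5, 35.9, 33.1 and 36.3 TPM (35.5 ± 1.61), with replicate 3 below the others. On the deposited length no 2 neighbours in this group overlapped. On the coding length Prim2 stood at 77.3 ± 3.58 TPM, above Pola1 at 62.1 ± 1.87. The ratio of Prim1 to Pola1 was 1.26 ± 0.0782 on the deposited length and 1.87 ± 0.116 on the coding length, but below 1 at 0.948 ± 0.0586 when the longest transcript of any type was used.

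Of the polymerases that extend the strands, the delta subunits Pold1 and Pold2 exceeded the epsilon subunits Pole and Pole2. Pold2, an accessory subunit, read 232, 192, 200.1 and 223 TPM (211 ± 18.7), and the catalytic Pold1 read 204, 169, 181 and 196 (187 ± 15.8). Both were highest in replicate 1 and lowest in replicate 2, and their ranges overlapped. On the coding length Pold1 stood at 191 ± 16.4 and Pold2 at 177 ± 15.9, the other way round. Pole, the catalytic subunit of polymerase epsilon, had 74.7, 66.8, 68.6 and 73.7 TPM (71.0 ± 3.82), in the same order of libraries. Pold3, a further delta subunit, was steady at 68.5, 69.1, 70.1 and 70.4 TPM (69.5 ± 0.880), and its range overlapped that of Pole. Pole2 was lowest with 64.6, 64.0, 60.9 and 52.9 TPM (60.6 ± 5.40), and replicate 4 was the low library. Pold1 exceeded Pole by a ratio of 2.64 ± 0.0874, and by 2.38 ± 0.0789 on the coding length.

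The sliding clamp Pcna encircles DNA, and the 5-subunit clamp loader RFC places it there. Pcna was the second most abundant member with 481, 532, 516 and 503 TPM (508 ± 21.6, ENSMUSG00000027342.14 on mm10 chromosome 2, 132249162 to 132253314, minus strand). It was lowest in replicate 1, and on the coding length it ranked first at 583 ± 23.8 TPM, ahead of Mcm3 at 466 ± 29.3. Reads of Pcna and its processed copies may not be fully separable, and the copy Pcna-ps2 held 124, 150, 152 and 104 counts while Pcna-ps1 held 0. Rfc1, the large loader subunit, read 119, 117, 113 and 114 TPM (116 ± 2.58). Rfc4, a small loader subunit, read 94.1, 134, 113 and 118 TPM (115 ± 16.3, ENSMUSG00000022881.14 on mm10 chromosome 16, 23113943 to 23127737, minus strand). Replicate 1 was low and replicate 2 high, and the coefficient of variation (CV, SD over mean) of 14.2% was the largest among the members. The range of Rfc4 enclosed that of Rfc1. The small subunits Rfc2 and Rfc5 were the steadiest members. Rfc2 read 63.5, 64.4, 64.6 and 64.4 TPM, with the smallest CV of all members at 0.781%. Rfc5 read 75.7, 74.1, 74.6 and 74.0 TPM with a CV of 1.04%. Rfc3 was lowest of the group with 29.1, 31.4, 29.8 and 30.2 TPM (30.1 ± 0.978) and a CV of 3.25%. On the coding length it stood at 59.9 ± 1.86 and Rfc2 at 58.8 ± 0.342, so their order turned. Rfc2 was 0.555 ± 0.0161 of Rfc1.

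Single-stranded DNA behind the helicase is coated by the 3 subunits of RPA. The large DNA-binding subunit Rpa1 had 222, 228, 222 and 228 TPM (225 ± 3.60), and another gene covers 0.789% of its exon bases. Rpa2 stood at 121 ± 3.70 TPM. The small subunit Rpa3 had 73.5, 80.4, 83.7 and 69.5 TPM (76.8 ± 6.45), the widest relative spread of the 3. None of the ranges overlapped, and Rpa1 exceeded Rpa3 by a ratio of 2.95 ± 0.272, or 1.91 ± 0.176 on the coding length.

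On the lagging strand, flaps are cut by Fen1 and Dna2, RNase H2 can cut primer RNA and nicks are sealed by DNA ligase 1. The ligase gene Lig1 was highest with 320.4, 273, 293 and 305 TPM (298 ± 20.1). Fen1 stood at 256 ± 14.3, with a range just below that of Lig1. Rnaseh2a, the catalytic subunit of RNase H2, had 55.0, 64.9, 67.6 and 66.0 TPM (63.4 ± 5.68), with replicate 1 low, and another gene covers 9.66% of its exon bases. Dna2 was lowest with 24.5, 25.2, 24.1 and 23.7 TPM (24.4 ± 0.644).

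Behind the fork, chromatin assembly factor 1 deposits histones on the new DNA. Its subunit genes Chaf1a, with 198, 184, 185 and 199 TPM (192 ± 8.16), and Chaf1b, with 32.8, 36.2, 33.8 and 32.6 (33.9 ± 1.65), differed by a ratio of 5.67 ± 0.488. That ratio fell to 1.30 ± 0.112 on the coding length. The deposited model of Chaf1a has 3308 exon bases, fewer than its longest coding transcript in the later annotation at 5535, and the model of Chaf1b has 5001 against 1922. Fragments of Chaf1a were counted over the 3308 bases only. Dividing them by 5535 understates its level. Fragments of Chaf1b were counted over 5001 bases, and dividing them by 1922 can overstate its level. The ratio of 1.30 is therefore not a like alternative to 5.67.

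The fork protection genes Clspn, Tipin and Timeless encode proteins that stabilise a stalled fork and pass on the checkpoint signal. Tipin was highest with 234, 270.1, 234 and 228 TPM (242 ± 19.3), and replicate 2 stood above the other 3. Timeless, whose protein binds that of Tipin, had 89.8, 72.8, 77.2 and 85.6 TPM (81.3 ± 7.70), with replicate 2 lowest. Clspn had 67.7, 55.4, 58.6 and 56.4 TPM (59.5 ± 5.65), with replicate 1 highest. Clspn and Timeless had the next largest CVs after Rfc4, at 9.49% and 9.47%. The ratio of Timeless to Tipin was 0.340 ± 0.0522, and 0.459 ± 0.0705 on the coding length.

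The 10 partner ratios given above were tested within libraries on log2(TPM + 1). On the deposited length each kept its side of 1 in 4 of 4 libraries. The two-sided exact sign-flip permutation test gave p = 0.13 for every pair, with p = 0.13 after Benjamini-Hochberg adjustment over the 10, and this is the smallest p that 4 libraries allow. The design therefore cannot reach 0.05 for any ratio.

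**Figure D2:**
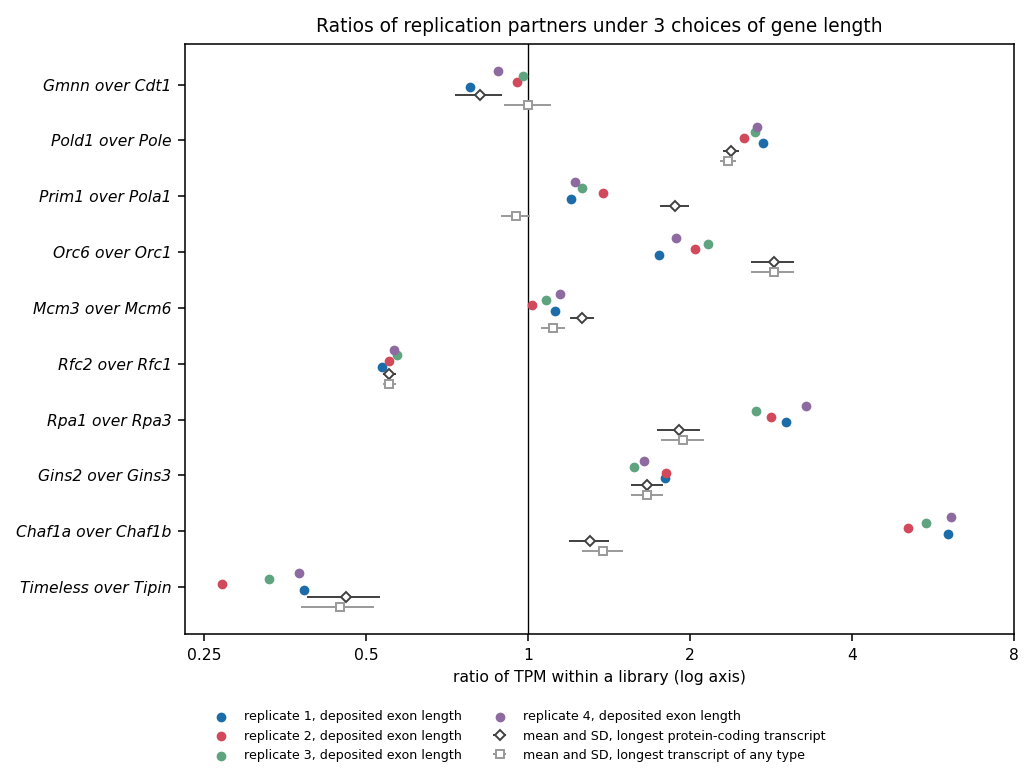
Ratio of TPM within a library (log axis) for 10 pairs of replication partners: coloured points are the 4 libraries on the deposited exon length, and open symbols are mean and SD on the longest protein-coding transcript (diamonds) and on the longest transcript of any type (squares). Points of 1 pair lie close together, while the choice of length moved Chaf1a over Chaf1b from 5.67 to 1.30 and moved Prim1 over Pola1 to either side of 1. The counts of Chaf1a cover fewer bases than its coding transcript, so its open symbols lie too low.

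The members varied little from library to library. Their median CV was 4.87%, from 0.781% to 14.2%, and only Rfc4 exceeded 10%. The median CV was 6.52% over all expressed genes and 5.97% over the protein-coding ones. Genes at a like level had a similar value: the 2428 expressed genes between 60.3 and 188 TPM, the middle range of the members, had a median CV of 4.65%. The ratio of the highest to the lowest library had a median of 1.11 over the members and reached 1.42 for Rfc4. The biological coefficient of variation fitted by edgeR, which removes counting error, had a median of 0.0585 over the members and 0.0735 over all genes tested. The genes tested include many at lower levels, and this value was not computed for genes at a like level. It therefore does not show that the members vary less than such genes.

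**Figure D3:**
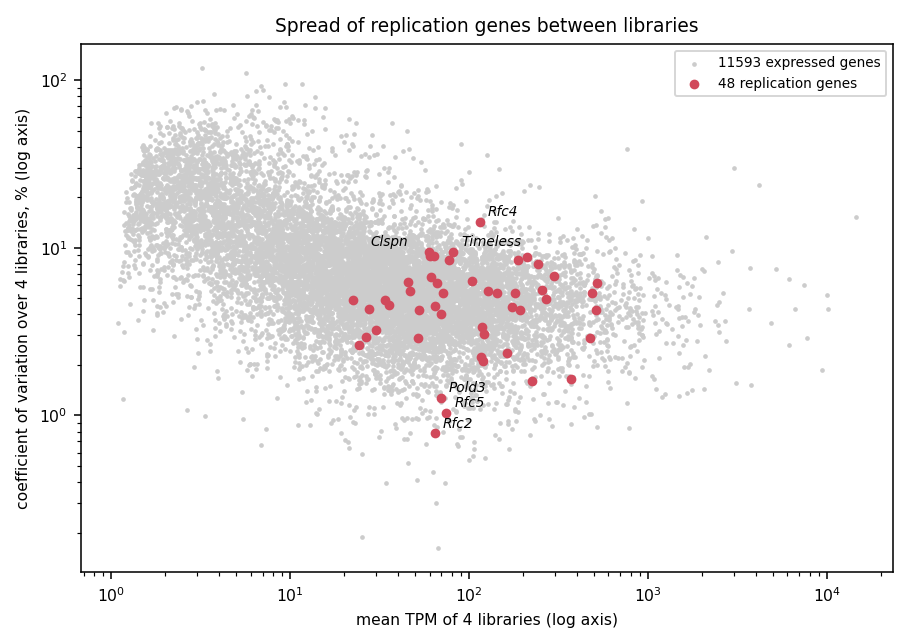
Coefficient of variation over the 4 libraries (%, log axis) against mean TPM (log axis) for 11593 expressed genes (grey) and the 48 replication genes (red). The replication genes lie inside the cloud of genes at the same level, with Rfc4 highest at 14.2% and Rfc2 lowest at 0.781%.

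Each library was set against the other 3 across 12917 genes with edgeR's quasi-likelihood test and Benjamini-Hochberg adjustment, a comparison of libraries and not of conditions. No member passed an adjusted p of 0.05 in any of the 4 comparisons, where 0.0697%, 0%, 0.0232% and 0% of all genes tested passed for replicates 1 to 4. DESeq2 also called 0 members in each, where it called 0.124%, 0.147%, 0.0619% and 0% of all genes. At an unadjusted p under 0.05, edgeR's test marked 5, 7, 0 and 1 members, against 9.31%, 6.78%, 2.31% and 2.49% of all genes. The typical size of a difference was small: the median absolute log2 difference of the members was 0.068, 0.079, 0.047 and 0.047, against 0.109, 0.105, 0.083 and 0.083 over all genes.

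Among the larger differences, that of Rfc4 in replicate 1 was -0.38 on the log2 scale (SE 0.10), and its adjusted p in edgeR's quasi-likelihood test was 0.161. The log2 difference of Clspn there was 0.25 (SE 0.07), with an adjusted p of 0.19 in the same edgeR test. For Rnaseh2a in replicate 1 the log2 difference was -0.27, with an edgeR adjusted p of 0.246, and for Tipin in replicate 2 it was 0.22, with an edgeR adjusted p of 0.592. Rfc4 in replicate 2 differed by 0.30 (SE 0.11) with an edgeR adjusted p of 0.672, and Pole2 in replicate 4 by -0.26 (SE 0.11) with an edgeR adjusted p of 1. Without replicate 4, replicate 1 differed from replicates 2 and 3 in 4 members by edgeR's test: Rfc4 at -0.40 (adjusted p = 0.0054), Timeless at 0.25 (adjusted p = 0.0123), Clspn at 0.24 (adjusted p = 0.0253) and Pold2 at 0.23 (adjusted p = 0.0418). In that comparison 2.59% of all genes were called, so the calls on members rest on which libraries enter. With no filter on low counts, Rfc4 was the 1 member called in replicate 1 by edgeR's test (-0.38, adjusted p = 0.0237), where 0.477% of all genes were called.

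In every comparison members lay on both sides of 0. Relative to the other 3 libraries, 28, 25, 15 and 31 of the 48 had a log2 difference above 0 in replicates 1 to 4. The shares of all genes were 48.9%, 49.0%, 48.4% and 49.7%. The members' share was thus lower than that of all genes in replicate 3 and higher in replicates 1, 2 and 4, which was not tested. The median differences of the members were 0.04, 0.00, -0.02 and 0.02. The highest TPM of a member fell in replicate 1 for 22 members, and in replicates 2, 3 and 4 for 11, 7 and 8 of the 48. Over all expressed genes these shares were 30.1%, 27.7%, 20.1% and 22.1%, and the difference was not tested.

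The members' differences were related to the GC content of their transcripts. GC was taken from the longest protein-coding transcript and ran from 36.8% in Orc4 to 60.7% in Pold1. Across the 48 members, Pearson's r of GC with the log2 difference was 0.43, -0.68, -0.31 and 0.60 for replicates 1 to 4. Over 12896 genes with a GC value it was 0.049, -0.16, -0.019 and 0.0995. These are correlations across genes that share the same 4 libraries, genes are not independent replicates, and the 4 comparisons share libraries with each other. In replicate 2 the 15 members of low GC (up to 46.9%) had a median log2 difference of 0.08, the 20 of middle GC -0.00 and the 13 of high GC (above 53.3%) -0.08. The same medians over all genes in replicate 2 were 0.05, -0.00 and -0.07. In replicate 4 the members' medians were -0.02, 0.03 and 0.08, and in replicate 1 they were -0.04, 0.03 and 0.07. Over all genes they were -0.035, 0.004 and 0.039 in replicate 4 and -0.033, -0.007 and 0.036 in replicate 1. The rise with GC in these libraries was thus not particular to the members. In replicate 2 the high-GC genes Pold1, Pold2, Timeless and Lig1 had log2 differences of -0.20, -0.18, -0.21 and -0.16, and the low-GC genes Rfc4, Tipin, Prim1 and Orc2 had 0.30, 0.22, 0.17 and 0.17. Chaf1b and Rnaseh2a, also of high GC, went the other way at 0.13 and 0.05. The part of GC content in these differences was not tested.

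**Figure D4:**
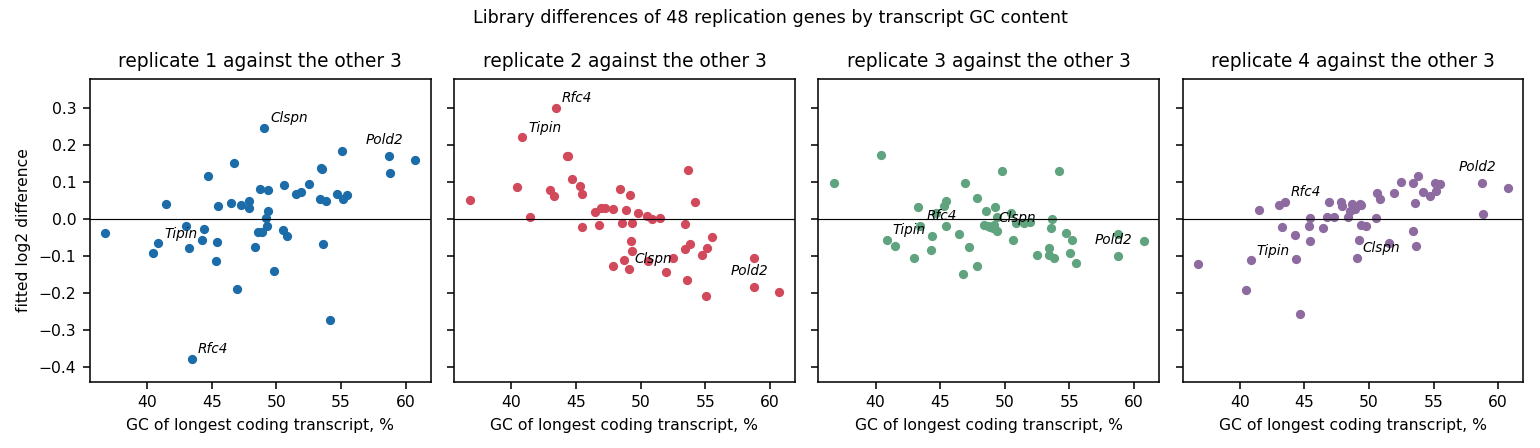
Fitted log2 difference of each replication gene in 1 library against the other 3 (vertical axis) by GC content of its longest protein-coding transcript (horizontal axis, %), 1 panel per library and 1 point per gene. Points fall with GC in replicate 2 (r = -0.68) and rise with GC in replicate 4 (r = 0.60).

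E2F factors bind a short GC-rich word in promoters of replication genes, and the members' promoters were searched for it. RefSeq windows of GRCm38.p6, from 250 bases before to 50 after each start, were matched by symbol for 39 of the 48 members. Mcm4, Gmnn, Gins1, Gins2, Gins4, Prim2, Pole, Rfc2 and Tipin had none. An E2F site was counted as any of TTTCCCGC, TTTCGCGC, TTTGCCGC and TTTGGCGC on either strand. Sites were found in 16 of 39 members (41.0%), against 5.11% of 8489 expressed genes and 2.61% of all 27025 genes with a window. The members and the expressed genes had like base composition, with a median window GC of 61.3% and 61.0%, against 52.7% for all windows. With only the bases before the start searched, 9 members held a site (23.1%), against 4.29% of expressed genes and 2.16% of all. The sites before the start, except that of Mcm6 at -47 to -40, are printed with their flanks. They show the words that were counted and how they are arranged. Each line runs 5′ to 3′ on the strand of the gene, capitals mark the E2F words, and where words on opposite strands overlap, the capitals cover both. Positions are counted from the RefSeq start as 0. The 39 members had 47 windows, and each position refers to the start of the window that held the site. For Orc1, Mcm7, Gins3 and Rfc3 a stretch of 60 bases overlaps exons of the deposited gene model, so 30 bases are printed. Before the start thus means before the RefSeq start, not outside every transcript.
Orc1: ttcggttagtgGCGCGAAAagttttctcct
Orc3: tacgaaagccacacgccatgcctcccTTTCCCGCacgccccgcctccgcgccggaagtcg
Cdc6: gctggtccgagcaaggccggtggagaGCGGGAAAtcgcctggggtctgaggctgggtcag
Mcm5: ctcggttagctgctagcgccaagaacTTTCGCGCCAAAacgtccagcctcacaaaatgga
Mcm6: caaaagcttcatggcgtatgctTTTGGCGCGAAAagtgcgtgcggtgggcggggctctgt
Mcm7: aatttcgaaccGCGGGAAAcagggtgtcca
Gins3: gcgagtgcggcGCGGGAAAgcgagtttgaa
Pola1: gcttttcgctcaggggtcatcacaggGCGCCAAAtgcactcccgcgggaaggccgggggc
Rfc3: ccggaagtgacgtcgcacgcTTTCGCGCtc

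These stretches lie on GRCm38.p6 at chr4:108579416-108579445 (plus strand) for Orc1, chr4:34614950-34615009 (minus) for Orc3, chr11:98907987-98908046 (plus) for Cdc6 and chr8:75109330-75109389 (plus) for Mcm5. The others lie at chr1:128359778-128359837 (minus) for Mcm6, chr5:138172030-138172059 (minus) for Mcm7, chr8:95633507-95633536 (plus) for Gins3, chrX:93632260-93632319 (minus) for Pola1 and chr5:151651209-151651238 (minus) for Rfc3. In Mcm5 and Mcm6, words on opposite strands overlap and form 1 run of 12 bases, at -153 to -142 in Mcm5 and at -110 to -99 in Mcm6. Mcm6 held a further site at -47 to -40, and Rfc3 and Mcm7 each held a further site that begins at or after the RefSeq start. In Cdt1, Mcm3, Pold1, Pold3, Pole2, Lig1 and Clspn every site lay after the start. Of 22 sites, 12 lay before the start.

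**Figure D5:**
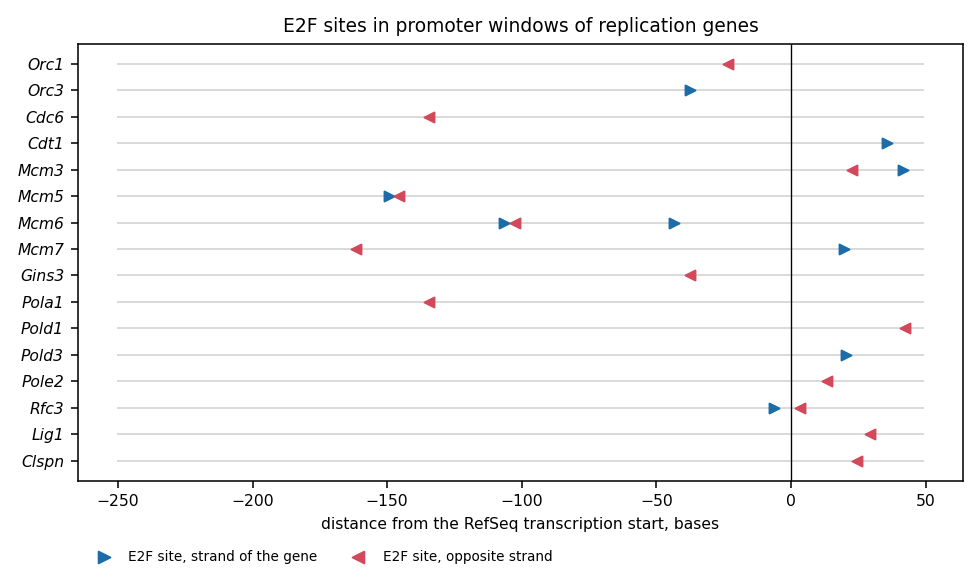
Positions of the 22 E2F sites in the promoter windows of 16 replication genes, as distance in bases from the RefSeq start (vertical line at 0); triangles point along the strand of the site and grey lines show the window searched. Of these, 12 sites lie before the start, and Mcm5 and Mcm6 hold overlapping pairs on opposite strands.

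Members with and without a site covered much the same range of levels. The 16 members with a site had a median of 69.6 TPM, from Gins3 at 27.6 to Mcm3 at 519, and the 23 without had a median of 115, from Orc4 at 22.5 to Pcna at 508. No test of that difference was made. Pcna, Mcm2, Cdc45 and Fen1 had none of the 4 words in this window. The CCAAT box (CCAAT on either strand), bound by the factor NF-Y, was found in 24 of 39 members (61.5%), against 43.6% of expressed genes and 41.1% of all. The cell cycle homology element (TTTGAA or TTCGAA on either strand), found in promoters active late in the cycle, was present in 7 of 39 (17.9%), against 16.4% and 21.7%. A match is a description of the letters and not evidence of binding.

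Genes that work with the members were read from 7 related lists, all chosen by function. All 10 genes of helicase activation and firing were expressed, with a median of 52.8 TPM. Mcmbp, which binds MCM subunits, stood at 133 ± 2.81 and the firing scaffold Topbp1 at 111 ± 2.69, while the firing factor Ticrr at 35.6 ± 2.67 and the kinase Cdc7 at 43.7 ± 1.35 were lowest. The 12 accessory polymerase, clamp and RNase H2 genes, a list that also held ubiquitin ligase genes, had a median of 59.4 TPM. The ubiquitin ligase gene Ddb1 at 880.1 ± 31.7 and Chtf8 at 312 ± 15.9 led that list. Dscc1, a subunit of an alternative clamp loader, at 7.37 ± 0.770 and Dtl, a substrate receptor for Cdt1 turnover, at 28.1 ± 0.631 were lowest. The 10 chromatin partners had a median of 154 TPM, above that of the members. They were led by the histone chaperone subunit Ssrp1 at 622 ± 21.8 and the maintenance methyltransferase Dnmt1 at 372 ± 24.6, with Mms22l at 38.3 ± 2.88 and Asf1a at 39.1 ± 3.51 lowest.

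All 8 genes of deoxynucleotide supply were expressed, with a median of 75.1 TPM. Rrm2, the cell-cycle-regulated subunit of ribonucleotide reductase, stood at 597 ± 9.43 and the dUTPase gene Dut at 366 ± 18.3, while the alternative reductase subunit Rrm2b was lowest at 11.3 ± 0.620. Of the translesion and repair set, 10 of 11 genes were expressed, and the median was 23.8 TPM. In that set Polh stood at 93.0 ± 3.74, Poll at 49.7 ± 2.52, Mcm9 at 9.50 ± 0.722 and Poln, the gene that was not expressed, at 0.585 ± 0.136. The 10 genes of mitochondrial DNA replication had a median of 44.3 TPM, from Polg at 63.4 ± 2.33 and Polrmt at 54.0 ± 6.97 to Primpol at 9.94 ± 0.561 and Polg2 at 7.84 ± 0.595. All 8 E2F genes were expressed, with a median of 47.4 TPM. E2f4 was highest at 386 ± 28.4 TPM, followed by the activator E2f2 at 74.1 ± 1.79, and E2f5 at 21.7 ± 1.51 and the repressor E2f7 at 8.45 ± 0.540 were lowest.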

How the data were processed

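The deposited values are raw fragment counts per gene. Per the file headers, the authors counted paired, reverse-stranded fragments over exons with featureCounts 1.4.6-p4 on mm10 alignments and GENCODE M13. The aligner's name was not given in the sources consulted. Per the labels the assay is total RNA-seq, whereas the linked library protocol is named for polyadenylated RNA. TPM and, as an alternative, FPKM were derived by calculation from the counts and the exon lengths, both deposited. Symbols came from GENCODE M21 for 50376 of 50600 genes, and transcript lengths and GC from the M21 transcripts. No pair of libraries agreed within sampling noise. Each library was set against the other 3 with edgeR 4.0.16 (TMM, filterByExpr, quasi-likelihood test, Benjamini-Hochberg at 0.05) in R 4.3.3, and with DESeq2 1.42.0, taking the spread of the lone library to equal that of the others. Every member received a value, and values in every library were given for the highest and lowest of each role group, any called member, the 3 largest and 3 smallest CVs, the genes of the 10 pairs and members with an outlying library. Of each related list the highest pair and the lowest pair were named, except for 1 gene that is not reported here. The members, lists and tests were chosen with earlier results of these data known. The E2F search before the start and the protein-coding lengths were added after values were seen.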

Additional observations from a re-analysis of the deposited data

Results flagged for a closer look

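Of 60 values tested for a library far from the other 3, 4 were marked (6.67%), where chance marks about 1 in 20. Gins3 stood at 25.8 TPM in replicate 2, against 28.1, 28.3 and 28.1 in the others. Tipin stood at 270.1 TPM in replicate 2, against 234, 234 and 228. Prim2 stood at 33.1 TPM in replicate 3, against 36.5, 35.9 and 36.3. The median over the 48 members was 97.1 TPM in replicate 2, against 91.9, 92.6 and 92.1.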

How the results depend on the processing

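Of 154 alternative values, 129 kept their direction and call or stayed within the spread, 24 moved and 1 reversed. A partner ratio was counted as kept on its sign alone. Thus Gmnn over Cdt1 counted as kept at a log2 ratio of -0.004 with the longest transcript of any type, against -0.162. So did Chaf1a over Chaf1b at 0.373 on the coding length, against 2.47. Leaving out 1 library or the pseudocount could turn no partner ratio, since each kept its sign in every library. The tally is therefore not a measure of robustness. The median TPM of the members was 98.3 when TPM was scaled over protein-coding genes only and 89.0 with the longest transcript of any type as length, against 93.4. With the longest transcript of any type the log2 ratio of Prim1 to Pola1 reversed to -0.077 from 0.331. The longest transcript was not protein coding for 17 of the 48 members, and for 14 it was a retained intron. The E2F search restricted to the bases before the start found 9 members in place of 16.

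For replicate 1 against the other 3, edgeR called 9 genes, 105 with no filter on low counts, 23 to 341 without 1 of the other libraries, and DESeq2 called 16. Members called there were 0, 1 with no filter (Rfc4, adjusted p = 0.0237, where 0.477% of genes were called), and 0 to 4 without 1 of the other libraries, the 4 arising without replicate 4. For replicate 2, edgeR called 0 genes, 60 with no filter and 3 to 52 without 1 library, and DESeq2 called 19. For replicate 3 these were 3, 35, 16 to 21 and 8. For replicate 4, edgeR called 0 genes, 16 with no filter and 2 to 9 without 1 library. For replicates 2 to 4 the members called stayed at 0 in every alternative run. No paired analysis was possible because all libraries belong to 1 group. Counts of genes near 0 limit no member, since the lowest member count was 793.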
